A study of Homo sapiens with 82 samples.

Results

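Genes that make reactive oxygen and genes that remove it were followed in HT29 cells, a human colorectal adenocarcinoma line, after activation of the liver X receptors (LXRs) or of peroxisome proliferator-activated receptor gamma (PPARG). The 10 genes are the NADPH oxidase NOX1 and its organizer NOXO1, the dual oxidase DUOX2 and its maturation factor DUOXA2, and the antioxidant genes SOD2, CAT, TXNRD1, GCLM, NQO1 and HMOX1. They were taken by symbol from gene count tables of 51838 rows each, and each symbol had a single row in both tables. RNA was sequenced in 32 libraries, 4 in each of 8 groups. Cells received the vehicle DMSO, the LXR agonist GW3965, the LXR agonist T0901317 or the PPARG agonist rosiglitazone for 24 or 48 h, each drug at 10 μM and each time point with its own DMSO group. All groups were the same unmodified line, kept in charcoal-treated serum without phenol red, and the study's methods say that each treatment was done 4 times per time point. Whether the 4 were run on separate days or passages is not given in the sources used here, so p-values measure the spread between these libraries. The study also assayed glutathione as a measure of oxidative stress. It reported significantly lower glutathione with GW3965 and with rosiglitazone, read as potentially raised oxidative stress. Those assays were shown for 48 h and a later time, not for 24 h, and not for T0901317. The study further reported higher PDK4 with rosiglitazone and discussed that gene with reactive oxygen. The glutathione assays were not analysed here, and the counts show transcripts, not reactive oxygen.

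NOX1 is the main NADPH oxidase of colon epithelium. It passes electrons from NADPH to oxygen and forms superoxide, and it needs the membrane partner CYBA, the organizer NOXO1, the activator NOXA1 and the small GTPase RAC1. DUOX2 makes hydrogen peroxide at the surface of the epithelium and needs DUOXA2 to leave the endoplasmic reticulum. SOD2 converts mitochondrial superoxide to hydrogen peroxide, which catalase (CAT) and the thiol systems then remove. TXNRD1 recycles thioredoxin with NADPH, and GCLM is the modifier subunit of the enzyme that starts glutathione synthesis. NQO1 reduces quinones and HMOX1 breaks down heme. TXNRD1, GCLM, NQO1 and HMOX1 are textbook targets of NRF2 (gene name NFE2L2), which binds antioxidant response elements with small MAF partners. KEAP1 holds NRF2 back and BACH1 competes for its sites.

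The sequences just upstream of 4 genes are shown. TXNRD1 and GCLM were higher after 48 h of rosiglitazone, and TXNRD1 was lower with the LXR agonists at that hour. NOX1 and NOXO1 moved apart from each other with the LXR agonists at 48 h. A window of 250 bases before the annotated start was taken from RefSeq (build GRCh38.p14) for 9 of the 10 genes, 13 windows in all, with no entry used for HMOX1. Both strands were searched for the core of the antioxidant response element, TGACNNNGC, which is in 10.9% of the 35116 RefSeq windows of this length. The core was found in 3 windows of the 2 genes TXNRD1 and GCLM. No other window searched held it, including that of NQO1, another NRF2 target. Bases further upstream were not searched, so a gene without a match may still have the core there. The windows are chr12:104215529-104215778 and chr12:104286782-104287031 on the plus strand for the alternative starts of TXNRD1, chr1:93909431-93909680 on the minus strand for GCLM, chrX:100874360-100874609 on the minus strand for NOX1 and chr16:1981470-1981719 on the minus strand for NOXO1. They are printed 5′ to 3′ on the gene's strand, with the core in capitals.
TXNRD1, first start: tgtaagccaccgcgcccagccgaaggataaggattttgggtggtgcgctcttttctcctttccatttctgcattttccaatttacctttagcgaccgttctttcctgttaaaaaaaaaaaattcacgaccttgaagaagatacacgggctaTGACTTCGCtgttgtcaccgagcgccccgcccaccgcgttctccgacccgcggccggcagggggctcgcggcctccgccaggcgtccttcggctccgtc
TXNRD1, second start: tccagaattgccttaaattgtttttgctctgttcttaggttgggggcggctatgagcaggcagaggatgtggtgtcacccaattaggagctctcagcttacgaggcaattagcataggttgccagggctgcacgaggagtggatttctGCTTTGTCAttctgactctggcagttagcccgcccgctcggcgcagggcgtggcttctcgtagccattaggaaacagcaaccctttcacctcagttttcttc
GCLM: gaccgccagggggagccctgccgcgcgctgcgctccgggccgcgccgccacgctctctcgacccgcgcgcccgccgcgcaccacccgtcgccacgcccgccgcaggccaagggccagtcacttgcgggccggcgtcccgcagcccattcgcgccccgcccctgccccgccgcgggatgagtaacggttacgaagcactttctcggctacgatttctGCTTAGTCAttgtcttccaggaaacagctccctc
NOX1: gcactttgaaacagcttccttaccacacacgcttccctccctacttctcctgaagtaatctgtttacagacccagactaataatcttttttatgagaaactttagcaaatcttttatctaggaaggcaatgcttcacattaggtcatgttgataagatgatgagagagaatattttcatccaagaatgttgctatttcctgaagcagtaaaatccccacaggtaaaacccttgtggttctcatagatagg
NOXO1: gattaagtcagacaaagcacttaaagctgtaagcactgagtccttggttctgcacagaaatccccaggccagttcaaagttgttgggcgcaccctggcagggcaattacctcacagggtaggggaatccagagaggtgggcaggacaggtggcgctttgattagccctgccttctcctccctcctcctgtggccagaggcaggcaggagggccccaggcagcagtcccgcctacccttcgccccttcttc
The core began 99 bases before the first start of TXNRD1, on the gene's strand, and 102 bases before the second start, on the opposite strand. In GCLM it began 34 bases before the start, also on the opposite strand, and it did not overlap another motif searched. The other motifs were TGANTCA (AP-1, in 6.57% of all windows), the direct repeat of AGGTCA spaced by 1 base (DR1, the kind PPARG binds, 0.0171%) and the same repeat spaced by 4 bases (DR4, the kind LXRs bind, 0.0142%). These were not in any of the 13 windows. A match is a description of the sequence and not a measured binding site.

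Across the series, total counts ran from 21044798 to 51332656 per library. Levels are given as CPM, the usual depth-scaled counts, with library totals adjusted by the TMM method. As checks of the treatments, on the log2 scale, ABCA1, an LXR-driven cholesterol exporter, rose by 4.61 and 5.77 with GW3965 and by 3.71 and 5.12 with T0901317 at 24 and 48 h. ANGPTL4, a PPAR target, rose by 5.02 and 6.75 with rosiglitazone, and by 3.81 with GW3965 at 48 h. PDK4 rose with rosiglitazone by 2.58 ± 0.10 (adjusted p = 1.5e-13) and 3.18 ± 0.11 (adjusted p = 2.52e-14) at 24 and 48 h, with GW3965 by 1.47 and 2.29, and with T0901317 by 1.55 at 48 h. Of 11 markers of colon epithelium, 10 were above 1 CPM in all 32 libraries and CDX1 in 28. No 2 replicates agreed within sampling noise (chi-square of at least 3.664 per gene over 48 pairs). In both tables counts of 1 and 2 were about equally frequent (50072 and 50039 entries), as were 3 and 4 (26530 and 26191), so 1 fragment may have been counted as 2 reads. Such counting would raise that chi-square, and a count here may stand for less than 1 fragment.

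NOX1 (ENSG00000007952.12) was lower with each drug at 48 h, and lowest with rosiglitazone at both time points. At 24 h the 4 DMSO libraries were at 6.79, 7.57, 10.5 and 7.57 CPM and the 4 GW3965 libraries at 4.37, 3.53, 4.39 and 3.68. The T0901317 libraries were at 4.71, 5.45, 6.96 and 7.84 CPM and the rosiglitazone libraries at 1.19, 1.56, 1.68 and 2.07. Every library with GW3965 or rosiglitazone was below every DMSO library, and T0901317 overlapped with DMSO. At 48 h NOX1 was at 28.2, 28.6, 30.9 and 30.8 CPM in DMSO and at 9.17, 13.4, 13.1 and 14.0 with GW3965. T0901317 gave 17.6, 22.1, 20.9 and 24.2 CPM and rosiglitazone 2.20, 2.66, 1.99 and 3.11. None of these groups overlapped with another at 48 h. Such separation was common. Against DMSO, 9.73%, 8.55% and 25.6% of all genes did not overlap with GW3965, T0901317 and rosiglitazone at 24 h. At 48 h these shares were 45.9%, 39.9% and 33.1%. Between GW3965 and T0901317 at 48 h the share was 23.2%, and between rosiglitazone and GW3965 it was 50%. In edgeR's quasi-likelihood test with Benjamini-Hochberg adjustment over all genes, a gene was called at an adjusted p below 0.01, and errors of log2 fold changes are standard errors. By this test NOX1 fell with rosiglitazone 5.04-fold after 24 h (by 2.33 ± 0.18 on the log2 scale, adjusted p = 8.08e-09) and 12.2-fold after 48 h (by 3.61 ± 0.15, adjusted p = 4.48e-13). With GW3965 it fell by 1.03 ± 0.16 (adjusted p = 0.000312) and 1.26 ± 0.12 (adjusted p = 6.82e-08). With T0901317 the log2 fold change was -0.38 ± 0.16 (adjusted p = 0.344, edgeR) at 24 h, and at 48 h NOX1 fell by 0.48 ± 0.12 (adjusted p = 0.00269), a call that was lost without T0901317 replicate 1 (-0.41, adjusted p = 0.0113). In DMSO alone NOX1 was 3.65-fold higher at 48 h than at 24 h (log2 1.87 ± 0.15, adjusted p = 2.19e-12). Each time point is a table of its own, so hours in culture and any difference between the 2 sets of libraries cannot be told apart. With rosiglitazone this rise was smaller, from 1.63 ± 0.363 to 2.49 ± 0.50 CPM (SD, n = 4), and the drug's effect was larger at 48 than at 24 h by -1.25 ± 0.26 (log2, adjusted p = 0.00233 for the interaction, 0.0121 without rosiglitazone 24 h replicate 4).

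**Figure D1:**
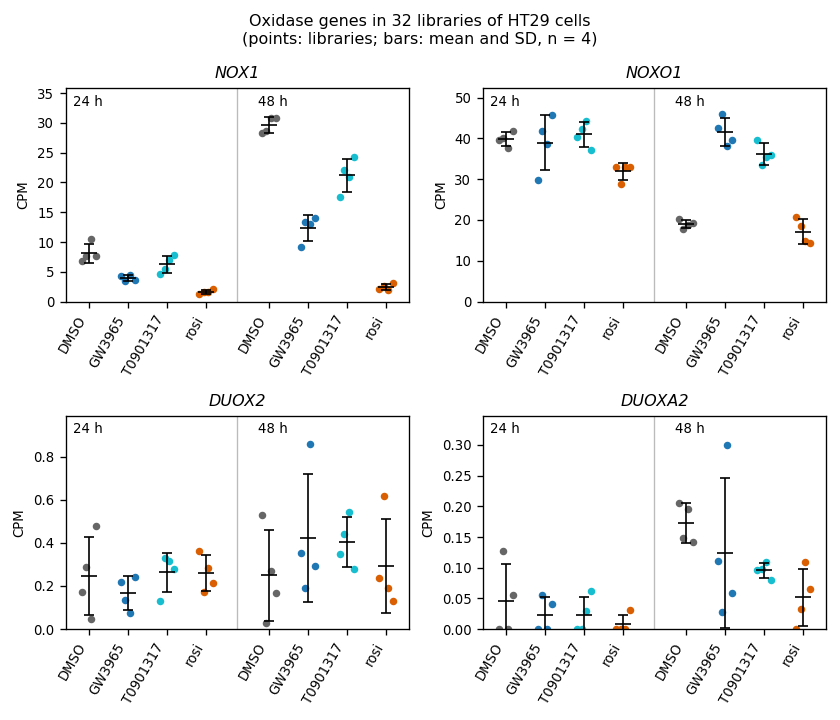
CPM of NOX1, NOXO1, DUOX2 and DUOXA2 (y axes, linear from 0) in each of the 32 libraries, with groups by drug and hour on the x axis (rosi, rosiglitazone), points for libraries and bars for the mean and SD of 4. NOX1 reached 29.6 CPM in DMSO at 48 h and stayed at 2.49 with rosiglitazone, and NOXO1 went from 39.7 to 19.0 CPM in DMSO between 24 and 48 h but from 38.9 to 41.6 with GW3965.

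NOXO1 (ENSG00000196408.6) moved the other way from NOX1 with the LXR agonists. At 24 h it was at 39.5, 40.2, 37.6 and 41.7 CPM in DMSO, at 29.7, 41.8, 38.5 and 45.6 with GW3965, at 40.2, 42.3, 44.3 and 37.2 with T0901317 and at 32.9, 28.8, 33.0 and 33.0 with rosiglitazone. Both LXR agonists overlapped with DMSO there, and rosiglitazone was below it. At 48 h DMSO was at 20.2, 17.9, 18.7 and 19.3 CPM, GW3965 at 42.6, 45.9, 38.2 and 39.7, T0901317 at 39.7, 33.4, 35.3 and 36, and rosiglitazone at 20.7, 18.6, 14.8 and 14.3. Every library with an LXR agonist was above every DMSO library, and rosiglitazone overlapped with DMSO. NOXO1 rose at 48 h by 1.12 ± 0.10 (adjusted p = 1.19e-08) with GW3965 and by 0.92 ± 0.10 (adjusted p = 1.77e-07) with T0901317. With rosiglitazone the log2 fold change was -0.32 ± 0.10 (adjusted p = 0.0232, edgeR) at 24 h, called without GW3965 24 h replicate 1 (adjusted p = 0.00102), and -0.17 ± 0.10 (adjusted p = 0.186) at 48 h. In DMSO, NOXO1 fell by 1.06 ± 0.10 (adjusted p = 1.35e-10) between 24 and 48 h. The levels at 48 h with GW3965, 41.6 ± 3.41 CPM, and with T0901317, 36.1 ± 2.66 CPM (SD, n = 4), lay near the 39.7 ± 1.71 CPM of DMSO at 24 h. In RefSeq the span of NOXO1 overlaps that of TBL3, and reads in such an overlap cannot be told apart without a stated strand setting.

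The dual oxidase pair was barely detected. DUOX2 (ENSG00000140279.6) lay between 0.0295 and 0.858 CPM in the 32 libraries, on 30 to 78 counts per group. Its log2 fold changes against DMSO had standard errors of 0.50 to 0.62 and none was called, so small or moderate differences could not be detected at this depth. DUOXA2 (ENSG00000140274.8) had 1 to 25 counts per group and did not pass the filter on low counts, which leaves 9 of the 10 genes tested. At 48 h its libraries had 5 to 8 counts in DMSO, 1 to 14 with GW3965, 4 to 5 with T0901317 and 0 to 4 with rosiglitazone, without a test.

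SOD2 stayed within a narrow range, whereas CAT was called with each drug at 1 of the time points. SOD2 (ENSG00000112096.11) had group means between 72.0 and 91.1 CPM, and neighbouring groups in the order of means overlapped throughout. At 48 h every rosiglitazone library (at most 76.7 CPM) was below every DMSO library (at least 76.9), where 33.1% of all genes did not overlap. SOD2 was not called against DMSO with any drug (the lowest adjusted p was 0.074, with rosiglitazone at 48 h). With scaling by library size alone, that value became a call (log2 -0.33, adjusted p = 0.000987). The span of SOD2 overlaps those of WTAP and ACAT2 in RefSeq. CAT (ENSG00000121691.4) was higher with both LXR agonists at 48 h, when it was at 49.7, 55.7, 53.7 and 50.5 CPM in DMSO, at 67.6, 69.8, 72.3 and 79.0 with GW3965, at 71.5, 72.7, 68.8 and 79.1 with T0901317 and at 63.9, 61.6, 56.7 and 63.1 with rosiglitazone. The 3 drug groups were each above DMSO, and the LXR agonists were above rosiglitazone. GW3965 raised CAT by 0.46 ± 0.06 (adjusted p = 6.48e-06) and T0901317 by 0.48 ± 0.06 (adjusted p = 4.15e-06). Rosiglitazone raised it by 0.30 ± 0.06 (adjusted p = 0.00057) at 24 h, where the call was lost with library size scaling (adjusted p = 0.0273), and at 48 h its log2 fold change was 0.21 ± 0.06 (adjusted p = 0.0158, called with DESeq2 at 0.00448).

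TXNRD1 (ENSG00000198431.10) went in opposite directions with the LXR agonists and rosiglitazone. At 24 h the mean was 289.9 CPM in the DMSO group, 340 ± 38.7 in GW3965, 327 ± 25.5 in T0901317 and 289.7 in rosiglitazone (SD, n = 4), and no drug was called. At 48 h it was at 489.8, 456, 553 and 498 CPM in DMSO and at 242, 239.9, 241 and 255 with GW3965. T0901317 gave 259, 271, 267 and 285 CPM and rosiglitazone 592, 834, 1322 and 940.1. The groups did not overlap, with the LXR agonists below DMSO and rosiglitazone above it. TXNRD1 fell by 1.04 ± 0.16 (adjusted p = 5.76e-05) with GW3965 and by 0.88 ± 0.16 (adjusted p = 0.000284) with T0901317, and rose by 0.86 ± 0.16 (adjusted p = 0.000422) with rosiglitazone. In DMSO it rose by 0.78 ± 0.13 (adjusted p = 6.26e-06) from 24 to 48 h, and the GW3965 libraries at 48 h lay below those of DMSO at 24 h, while T0901317 overlapped with them. The rosiglitazone libraries at 48 h varied 2.23-fold, and leaving out each library in turn moved the log2 fold change between 0.639 and 1.03 with a call in all 16 fits.

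GCLM (ENSG00000023909.5) was called against DMSO with rosiglitazone at 48 h alone. It was at 44.1, 38.7, 42.6 and 41.9 CPM in DMSO and at 52.0, 60.6, 88.9 and 76.9 with rosiglitazone, all above DMSO. The rise was 0.71 ± 0.12 (adjusted p = 0.000102). With the LXR agonists at 48 h the log2 fold changes were -0.22 ± 0.12 (adjusted p = 0.137) with GW3965, called when that group and DMSO were fitted alone (adjusted p = 0.00765), and -0.07 ± 0.12 (adjusted p = 0.668, edgeR) with T0901317. At 24 h its group means ran from 48.1 to 56.8 CPM. Every rosiglitazone library was above every DMSO library there, where 25.6% of all genes did not overlap (log2 0.19 ± 0.07, adjusted p = 0.0851, edgeR). The effect of rosiglitazone at 48 h was not called as different from that at 24 h (0.54 ± 0.15, adjusted p = 0.0205 for the interaction).

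NQO1 (ENSG00000181019.7) was highest with the LXR agonists at 48 h, unlike TXNRD1 and GCLM. At 24 h it was at 198, 194, 193 and 195 CPM in DMSO, at 243, 222, 208 and 220.5 with GW3965, at 243, 255, 229 and 241 with T0901317 and at 164, 169, 159 and 173 with rosiglitazone. Both LXR agonists were above DMSO and rosiglitazone was below it, without overlap. At 48 h it was at 242, 233, 237 and 232 CPM in DMSO, at 323, 327, 318 and 329 with GW3965, at 354, 380.2, 392 and 361 with T0901317 and at 240.7, 256, 323 and 282 with rosiglitazone. The LXR groups were again above DMSO, and rosiglitazone overlapped with it. NQO1 rose by 0.31 ± 0.05 (adjusted p = 0.0011) with T0901317 at 24 h, and at 48 h by 0.66 ± 0.07 (adjusted p = 2.05e-07) with T0901317 and 0.45 ± 0.07 (adjusted p = 1.92e-05) with GW3965. At 24 h with GW3965 its log2 fold change was 0.19 ± 0.05 (adjusted p = 0.0429, edgeR), which was not called. With rosiglitazone it fell by 0.24 ± 0.05 (adjusted p = 0.00317) at 24 h, a call lost without DMSO replicate 1 or without rosiglitazone replicate 1 or 3 (adjusted p between 0.0134 and 0.0156), and at 48 h its log2 fold change was 0.20 ± 0.07 (adjusted p = 0.0267).

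HMOX1 (ENSG00000100292.12) had the strongest rise of the 9 genes tested with rosiglitazone. At 24 h it was at 5.15, 4.25, 3.90 and 4.32 CPM in DMSO and at 25.9, 25.2, 24.8 and 27 with rosiglitazone, while the LXR groups had means of 5.22 and 4.68. At 48 h DMSO was at 4.88, 3.69, 4.54 and 4.43 CPM, GW3965 at 7.35, 8.02, 8.36 and 9.42, T0901317 at 8.22, 6.75, 6.45 and 6.73, and rosiglitazone at 21.9, 31.3, 44.8 and 36.2. At 48 h each drug group was above DMSO, with rosiglitazone far above the LXR agonists. HMOX1 rose with rosiglitazone 5.81-fold at 24 h (log2 2.54 ± 0.09, adjusted p = 4.28e-14) and 7.53-fold at 48 h (log2 2.91 ± 0.17, adjusted p = 3.02e-10). At 48 h it rose by 0.91 ± 0.17 (adjusted p = 0.00028) with GW3965 and by 0.68 ± 0.17 (adjusted p = 0.004) with T0901317. The last call was lost in 4 of 16 fits that left out a library (DMSO replicate 2, 3 or 4, or T0901317 replicate 1, adjusted p up to 0.0188).

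**Figure D2:**
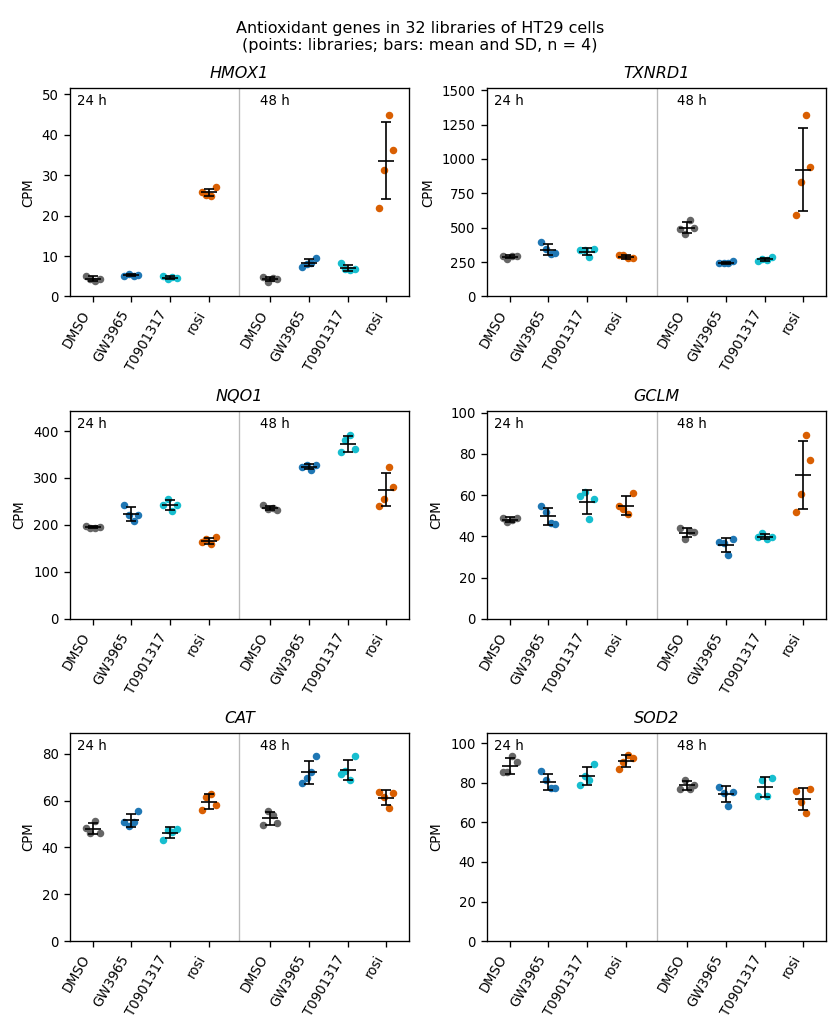
CPM of HMOX1, TXNRD1, NQO1, GCLM, CAT and SOD2 (y axes, linear from 0) in each of the 32 libraries by drug and hour (rosi, rosiglitazone), with points for libraries and bars for the mean and SD of 4. HMOX1 stood at 25.7 and 33.6 CPM with rosiglitazone against 4.40 and 4.39 in DMSO, and TXNRD1 at 48 h at 244 CPM with GW3965, 499 in DMSO and 922 with rosiglitazone.

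The 4 rosiglitazone libraries at 48 h were more spread than other groups for TXNRD1, GCLM, NQO1 and HMOX1, and they had the same order for these genes, with replicate 1 lowest, then replicate 2, replicate 4 and replicate 3. Replicate 1 also had the highest share of mitochondrial counts of the 4 (2.75%) and replicate 3 the lowest (2.37%), and their TMM factors were 0.940 and 0.872. For replicates 2 and 4 the shares were 2.54% and 2.69% and the TMM factors 0.8996 and 0.924. By both measures replicate 4 lay nearer to replicate 1 than replicate 2 did, unlike in the order of the genes. The part of these in the spread was not tested. Without replicate 1, NQO1 was called higher with rosiglitazone at 48 h (log2 0.26, adjusted p = 0.00264).

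Counted together, 1 of the 9 genes tested was called with GW3965 at 24 h (NOX1), 1 with T0901317 (NQO1) and 4 with rosiglitazone (NOX1, NQO1, CAT and HMOX1), where 2.81%, 1.52% and 12.4% of all 21781 genes tested were called. At 48 h, 6 of 9 were called with GW3965, 6 with T0901317 and 4 with rosiglitazone, against 33.6%, 30% and 25.5% of all 22470 genes tested. The same 6 genes were called with both LXR agonists: NOX1 and TXNRD1 lower, and NOXO1, CAT, NQO1 and HMOX1 higher. With rosiglitazone NOX1 was lower and TXNRD1, GCLM and HMOX1 were higher. Over the 9 genes the log2 fold changes had a median of 0.455 after 48 h of GW3965, 0.479 after T0901317 and 0.203 after rosiglitazone, where the medians of all genes lay between -0.0115 and 0.0134. Since 1 set of DMSO libraries served all 3 drugs at each hour, these counts are not independent of each other. The genes and the gene lists below were also chosen with earlier results of these data known. Their counts beside the shares of all genes are therefore descriptions and not a test. With library size scaling the medians of all genes moved to -0.113 and -0.191 with rosiglitazone at 24 and 48 h, and the share of all called genes that were higher went from 46.9% to 24.8% and from 48.3% to 20%, while the calls among the 9 genes kept their direction. With GW3965 at 24 h that share went from 68.3% to 56%.

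**Figure D3:**
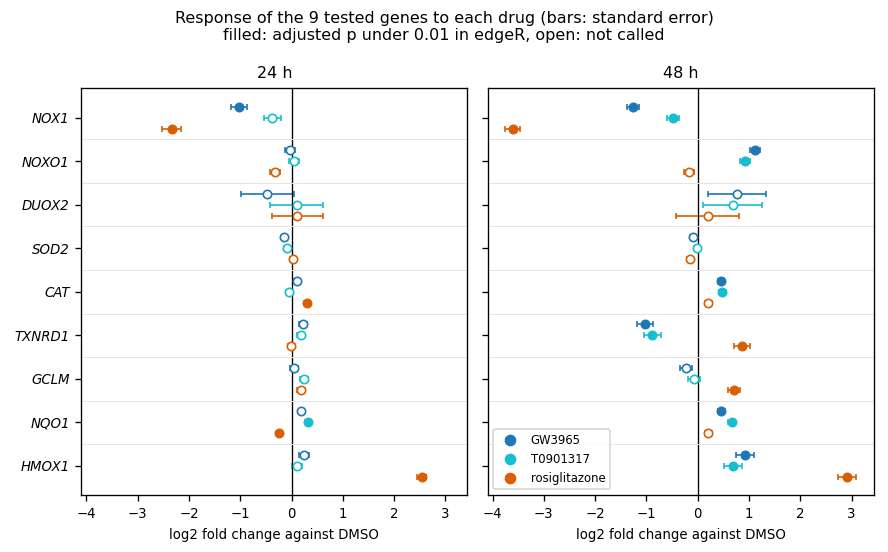
Log2 fold change of the 9 tested genes against DMSO (x axis) at 24 h and 48 h, one colour per drug, with bars for the standard error and filled points for an adjusted p below 0.01 in edgeR. At 48 h TXNRD1 lies at -1.04 and -0.88 with the LXR agonists and at 0.86 with rosiglitazone, and NOX1 reaches -3.61 with rosiglitazone.

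GW3965 and T0901317, both agonists of the LXRs, were compared directly at the same dose and hour. At 48 h, 1 of 9 genes was called, where 8.52% of all genes were: NOX1 was lower with GW3965 than with T0901317 by 0.78 ± 0.12 (log2, adjusted p = 0.000278). The differences of the other genes with more than 1 CPM at 48 h lay between -0.20 ± 0.07 for NQO1 (adjusted p = 0.0483) and 0.23 ± 0.16 for HMOX1 (adjusted p = 0.378), and a p above the threshold does not show that the agonists act alike. At 24 h, 0 of 9 genes were called by edgeR against 0.808% of all genes, with 4 at an unadjusted p below 0.05 and 1 called by DESeq2. The gene was NOX1, at -0.65 ± 0.17 (adjusted p = 0.0502 with edgeR and 0.00951 with DESeq2).

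Rosiglitazone and GW3965 differed in 3 of 9 genes at 24 h, where 10.9% of all genes were called, and in 7 of 9 at 48 h, where 45% were. At 48 h TXNRD1 was higher with rosiglitazone by 1.90 ± 0.16 (adjusted p = 4.49e-08), HMOX1 by 2.00 ± 0.16 (adjusted p = 4.42e-09) and GCLM by 0.94 ± 0.12 (adjusted p = 1.73e-06). NOX1 was lower by 2.35 ± 0.15 (adjusted p = 6.73e-11) and NOXO1 by 1.30 ± 0.10 (adjusted p = 6.09e-10). CAT and NQO1 were both lower by 0.25 (adjusted p = 0.00218 and 0.00424). The NQO1 call was lost without GW3965 replicate 1, 2 or 4 or rosiglitazone replicate 1 or 2 (adjusted p up to 0.0204), and the CAT call without GW3965 replicate 4 (adjusted p = 0.0132). At 24 h HMOX1 was higher by 2.30 ± 0.09 (adjusted p = 6.72e-14), and NOX1 and NQO1 were lower by 1.31 ± 0.19 (adjusted p = 3.36e-05) and 0.43 ± 0.05 (adjusted p = 5.59e-06).

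The effects at 48 h were tested against those at 24 h as an interaction over all 32 libraries and 23140 genes. With GW3965 the effect differed for 4 of 9 genes (21.5% of all genes), of which HMOX1 (adjusted p = 0.00974) was called in 6 of 32 fits that left out a library, with T0901317 for 4 (17.5%) and with rosiglitazone for 3 (2.44%). NOXO1 and CAT moved up with both LXR agonists and TXNRD1 fell by 1.26 ± 0.18 more with GW3965 (adjusted p = 2.63e-06) and by 1.06 ± 0.18 more with T0901317 (adjusted p = 3.93e-05). With rosiglitazone TXNRD1 moved up by 0.89 ± 0.18 (adjusted p = 0.00252, and 0.0307 with those groups fitted alone), NQO1 by 0.45 ± 0.09 (adjusted p = 0.00126), and NOX1 moved down as given above. For HMOX1 with rosiglitazone the change from 24 to 48 h was 0.39 ± 0.19 (adjusted p = 0.254). In DMSO itself, 4 of 9 genes differed between the time points, against 38.5% of all genes: NOX1, TXNRD1 and NQO1 were higher and NOXO1 was lower at 48 h.

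Of the other genes of NADPH oxidase complexes, 9 of 13 passed the filter at 48 h. At that hour 33.6%, 30% and 25.5% of all genes were called with GW3965, T0901317 and rosiglitazone, and the shares of this list lay near these, at 4, 3 and 2 of 9. With GW3965, 3 were higher and 1 lower. CYBA rose by 0.52 ± 0.06 (adjusted p = 6.92e-07), NOXA1 by 0.86 ± 0.10 (adjusted p = 4.39e-07) and RAC2 by 0.76 ± 0.15 (adjusted p = 0.000246), whereas RAC1 fell by 0.24 ± 0.06 (adjusted p = 0.00266). With T0901317 the same 3 genes rose, by 0.21, 0.81 and 0.77. With rosiglitazone NOXA1 fell by 0.69 ± 0.10 (adjusted p = 2.64e-05) and RAC2, the leukocyte form of RAC, by 0.91 ± 0.16 (adjusted p = 0.000139). RAC2 and the oxidase gene CYBB are marks of leukocytes. Of 10 immune markers, 2 (LYZ and CD68) were above 1 CPM in all 32 libraries. The myeloid markers CYBB (0.83 to 2.01 CPM), CD14 (0.441 to 3.88), ITGAM (0.607 to 5.29) and NCF1 (0 to 6.82) were above 1 CPM in 27, 24, 27 and 13 libraries, and the leukocyte and lymphocyte markers PTPRC, CD3E and MS4A1 in none. The summed level of the 10, nearly all of it LYZ, was 559.8 to 617 CPM with GW3965 at 48 h and 700.0 to 769 CPM with T0901317 at 48 h against 474 to 495 in DMSO. Their part in these values was not tested.

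Rosiglitazone at 48 h raised further NRF2 targets, and with the LXR agonists targets moved both ways. Of 26 targets other than those above, 14 were called with rosiglitazone at 48 h, each of them higher, where 25.5% of all genes were called, with a median log2 fold change of 0.448 over the 26. AKR1B10, an aldo-keto reductase, rose by 2.10 ± 0.12 (adjusted p = 2.18e-10), GCLC, the catalytic partner of GCLM, by 1.45 ± 0.19 (adjusted p = 3.62e-05), SRXN1, which repairs oxidized peroxiredoxins, by 1.39 ± 0.15 (adjusted p = 2.67e-06) and OSGIN1 by 1.17 ± 0.13 (adjusted p = 2.07e-06). The rosiglitazone libraries at 48 h were widely spread here too. They ran from 263 to 457 CPM for AKR1B10, 205 to 517 for GCLC, 143 to 296 for SRXN1 and 54.9 to 96.6 for OSGIN1. With GW3965 11 rose and 4 fell, and with T0901317 9 rose and 3 fell, with medians of 0.267 and 0.206, where 33.6% and 30% of all genes were called. SRXN1 fell by 0.85 and 1.06 with GW3965 and T0901317 and OSGIN1 by 0.61 and 1.40, while the log2 fold changes of GCLC were -0.51 (adjusted p = 0.0437) and -0.53 (adjusted p = 0.0395). At 24 h, 5 of 25 targets were called with GW3965 and 3 with T0901317, against 2.81% and 1.52% of all genes. Rosiglitazone had 10 called there, 4 higher and 6 lower, against 12.4% of all genes.

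Among 13 regulators of NRF2 at 48 h, 6 were called with each LXR agonist, each of them lower, and 5 with rosiglitazone, each of them higher. Of all genes 33.6%, 30% and 25.5% were called with GW3965, T0901317 and rosiglitazone in either direction, and the medians over the 13 were -0.167, -0.375 and 0.136. NFE2L2, which encodes NRF2, fell by 1.42 ± 0.06 (adjusted p = 5.19e-13) with GW3965, from 205 ± 7.87 to 77 ± 2.64 CPM (SD, n = 4), and by 1.33 ± 0.06 (adjusted p = 1.61e-12) with T0901317. BACH1 fell by 1.40 ± 0.09 and 1.23 ± 0.09, and MAFF by 1.48 ± 0.09 and 1.61 ± 0.09. With rosiglitazone NFE2L2 stood at 228 ± 16.2 CPM (log2 0.13 ± 0.06, adjusted p = 0.094) and BACH1 at -0.06 ± 0.08 (log2, adjusted p = 0.645). SQSTM1, whose protein binds KEAP1, rose with rosiglitazone by 1.0 ± 0.06 (adjusted p = 2.52e-10) at 24 h and by 1.84 ± 0.14 (adjusted p = 1.82e-08) at 48 h, and MAFF rose by 0.72 ± 0.09 (adjusted p = 2.27e-06). For SQSTM1 the rosiglitazone libraries at 48 h ran from 1550 to 3110 CPM. In DMSO, NFE2L2 was 1.61 ± 0.06 (log2, adjusted p = 6.96e-21) and BACH1 1.65 ± 0.09 (adjusted p = 1.68e-16) higher at 48 than at 24 h, and with the LXR agonists at 48 h NFE2L2 lay near the 67.1 ± 1.92 CPM of DMSO at 24 h.

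Glutathione genes were split within the list at 48 h. Of 23 tested besides GCLM, 5 rose and 8 fell with GW3965, 8 rose and 7 fell with T0901317, and 6 rose and 3 fell with rosiglitazone, where 33.6%, 30% and 25.5% of all genes were called. CTH, which makes cysteine from cystathionine, fell by 2.15 ± 0.19 (adjusted p = 1.71e-07) with GW3965 and by 1.81 ± 0.19 (adjusted p = 1.08e-06) with T0901317. SLC3A2, a subunit of the cystine transporter, was lower than DMSO by 1.32 and 1.5, and CHAC1, which degrades glutathione, by 1.37 and 1.57. At 24 h these 3 genes were higher than DMSO with both agonists, for CHAC1 by 2.53 ± 0.11 (GW3965, adjusted p = 1.28e-12) and 2.40 ± 0.11 (T0901317, adjusted p = 4.4e-12). With rosiglitazone at 48 h SLC3A2 rose by 0.47 ± 0.12 (adjusted p = 0.00413) and CHAC1 by 0.40 ± 0.10 (adjusted p = 0.00247). In DMSO, CHAC1 was 5.13 ± 0.12 (log2) and CTH 3.99 ± 0.18 higher at 48 than at 24 h. Mean CHAC1 went from 4.78 CPM at 24 h to 169 at 48 h in DMSO. With GW3965 it went from 27.7 to 65.7 and with T0901317 from 25.3 to 56.8. Mean SLC3A2 went from 185 to 973 CPM in DMSO, from 273 to 392 with GW3965 and from 253 to 345 with T0901317. Mean CTH went from 2.21 to 35.2 CPM in DMSO, from 3.52 to 7.93 with GW3965 and from 3.72 to 10.0 with T0901317.

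**Figure D4:**
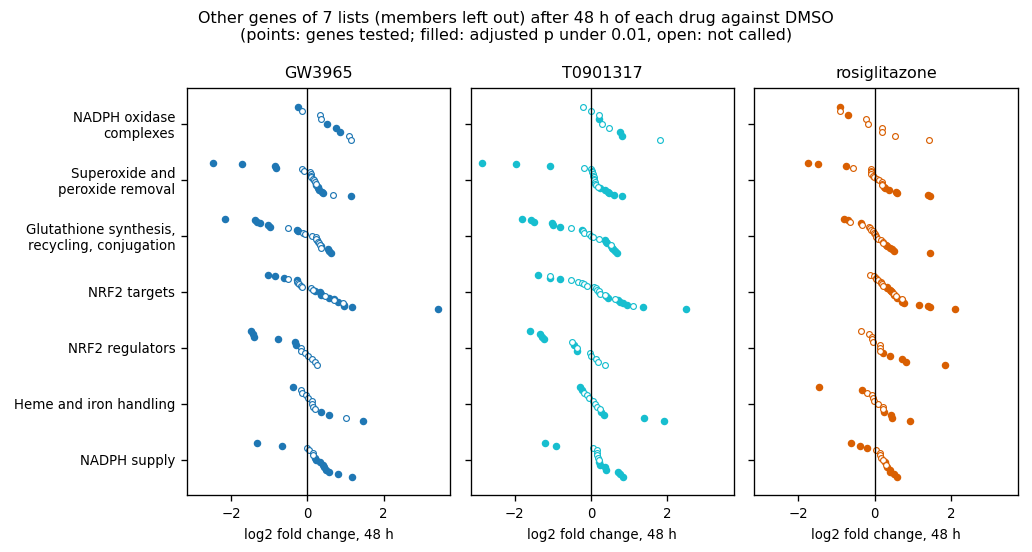
Log2 fold change at 48 h against DMSO (x axis) of the other genes of 7 lists (rows, the 10 genes left out), one panel per drug, with filled points for genes called at an adjusted p below 0.01. The 6 called NRF2 regulators lie to the left with GW3965 and T0901317, down to -1.48 and -1.61 for MAFF, and the 5 called with rosiglitazone to the right, up to 1.84 for SQSTM1. The other regulators of the 13 were not called.

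Among 22 other genes that remove superoxide or peroxide, 7 rose and 4 fell with GW3965 at 48 h, 6 rose and 3 fell with T0901317, and 7 rose and 3 fell with rosiglitazone. The shares of all genes called at 48 h, for this list and the next ones, were 33.6%, 30% and 25.5%. TXNIP, an inhibitor of thioredoxin, was lower than DMSO by 2.48 ± 0.10 (adjusted p = 6.52e-13) with GW3965 and by 2.84 ± 0.11 (adjusted p = 1.2e-13) with T0901317, and SESN2 by 1.70 and 1.95. From 24 to 48 h mean TXNIP went from 88.2 to 602 CPM in DMSO, from 95.6 to 108 with GW3965 and from 64.6 to 83.8 with T0901317. Mean SESN2 went from 21.1 to 275 CPM in DMSO, from 43.9 to 84.9 with GW3965 and from 43.9 to 71.1 with T0901317. With rosiglitazone TXNIP had a log2 fold change of -0.10 ± 0.10 (adjusted p = 0.441), SESN2 rose by 0.60 ± 0.11 (adjusted p = 0.000373), the extracellular dismutase SOD3 fell by 1.49 ± 0.18 (adjusted p = 2.25e-06), and GPX8 fell by 1.74 ± 0.20 (adjusted p = 1e-06). Of 13 heme and iron genes besides HMOX1, 3 rose and 1 fell with GW3965, 4 rose and 2 fell with T0901317, and 4 rose and 2 fell with rosiglitazone. BLVRB, a biliverdin reductase, rose with rosiglitazone by 0.45 ± 0.07 (adjusted p = 5.5e-05) at 24 h and 0.94 ± 0.07 (adjusted p = 3.71e-09) at 48 h. The iron exporter SLC40A1 rose by 1.46 and 1.93 with the LXR agonists at 48 h and fell by 1.45 with rosiglitazone. The light chain of ferritin, FTL, rose with GW3965 by 0.35 (adjusted p = 0.00303) and with rosiglitazone by 0.46 (adjusted p = 0.000335), and ALAS1, which starts heme synthesis, rose by 0.42 with rosiglitazone and fell by 0.38 and 0.29 with GW3965 and T0901317. Of 15 NADPH-supplying genes, 9 rose and 2 fell with GW3965, 7 rose and 2 fell with T0901317, and 6 rose and 3 fell with rosiglitazone. PGD, of the pentose phosphate pathway, rose by 0.81 and 0.72 with the LXR agonists, and the mitochondrial folate enzymes MTHFD2 and MTHFD1L fell by 1.33 and 0.66 with GW3965 and by 1.21 and 0.91 with T0901317.

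Across the 8 group means of log2 CPM, the genes with patterns most like NOX1 were ATP6V1B1, SYTL2 and ITGA1 (Pearson r from 0.969 to 0.980, of 2014 candidate genes), and those most like NOXO1 were BMP8B, TNFRSF10D and ENO2 (r from 0.985 to 0.987). HMOX1 was matched by LIPE, EPHB2 and SGK2, TXNRD1 by SH3RF1, LRRFIP1 and SERTAD2, and NQO1 by AKR1C2, ADCY4 and IDH1. Among the 9 tested genes the pairs with the largest r in size were NOXO1 with TXNRD1 (r = -0.905), DUOX2 with CAT (0.815), SOD2 with NQO1 (-0.798) and NOX1 with GCLM (-0.786), and DUOX2 rests on few counts. These are descriptions over 8 groups that share their libraries, with the best matches picked from many, and carry no p.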

How the data were processed

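RNA-seq of HT29 cells was used as deposited: 2 tables, for 24 and 48 h, of whole-number counts per gene and library made by the authors. The submitters' processing notes name the build hg19 and the tools TopHat, Cufflinks, Bowtie and MACS, without roles or versions; for the counting program, its annotation and its strand setting nothing was found (not given in the sources used here). Reads of overlapping genes therefore cannot be separated, and the standard errors do not cover the choice of alignment and counting settings.

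Each table was fitted over its 16 libraries (32 for the interactions and for DMSO at 48 against 24 h) with edgeR 4.0.16 in R 4.3.3: TMM scaling, filterByExpr, and quasi-likelihood F tests, with p-values adjusted after Benjamini-Hochberg over 21781, 22470 and 23140 genes. A call is an adjusted p below 0.01. CPM use the TMM factors of the 32 libraries. The standard error is the log2 fold change divided by the square root of F. The scripts were tested on simulated data. Alternatives were DESeq2 1.42.0, other scalings, no filter, other limits, only the groups compared, a replicate block and leaving out each library.

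The 10 genes and the gene lists were chosen with earlier results of these data known. From each list the 4 genes outside the 10 with the largest called change in any of the 6 drug comparisons, at an average log2 CPM of at least 1, are named, besides ABCA1, ANGPTL4 and PDK4 as checks and the 3 genes most alike per gene (SD of group means of at least 0.5). Lists share genes. A gene that the rule names and an immune marker are not reported here. ChIP-seq peaks of 34 samples were not used here, since no gene coordinates of hg19 were at hand.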

Additional observations from a re-analysis of the deposited data

Results flagged for a closer look

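In 5 of 80 pairs of a gene and a group, 1 library stood apart from the other 3 by Dixon's test, which chance gives in about 1 of 20. These were DUOXA2 with rosiglitazone at 24 h (replicate 4 highest, 0.0305 CPM, a single count), HMOX1 with T0901317 at 48 h (replicate 1 highest, 8.22 CPM), NOXO1 with rosiglitazone at 24 h (replicate 2 lowest, 28.8 CPM), TXNRD1 with T0901317 at 24 h (replicate 3 lowest, 289 CPM) and TXNRD1 with GW3965 at 48 h (replicate 4 highest, 255 CPM).

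In 11 cases a drug's effect at 48 h differed from its effect at 24 h in the test of the interaction (log2, effect at 48 h minus effect at 24 h). With GW3965 these were NOXO1 (1.16), CAT (0.36), TXNRD1 (-1.26) and HMOX1 (0.68). The HMOX1 call was lost in 26 of 32 fits that left out a library and with the replicate block. With T0901317 they were NOXO1 (0.88), CAT (0.53), TXNRD1 (-1.06) and NQO1 (0.35). With rosiglitazone they were NOX1 (-1.25), TXNRD1 (0.89) and NQO1 (0.45). The DMSO groups of the 2 time points themselves differed for NOX1, NOXO1, TXNRD1 and NQO1, and hours in culture and the set of libraries cannot be told apart.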

How the results depend on the processing

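No call of the 10 genes changed direction under any alternative, and of the values for single genes 3250 stayed on their side of the threshold, 51 lost a call and 36 gained one. With a fold of 2 added to the threshold, the genes called were 0 for T0901317 at 24 h, 2 for rosiglitazone at 24 h, 3 for GW3965, 0 for T0901317 and 2 for rosiglitazone at 48 h, 0 for GW3965 against T0901317 and 4 for rosiglitazone against GW3965 at 48 h, 2, 1 and 1 for the interactions of GW3965, T0901317 and rosiglitazone, and 2 for DMSO over time. With a fold of 1.5 they were 0 for T0901317 and 2 for rosiglitazone at 24 h, and 2 for the T0901317 interaction. With an adjusted p below 0.05 they were 2 for GW3965 at 24 h, 7 for rosiglitazone against GW3965 at 24 h and 2 for GW3965 against T0901317 at 48 h. DESeq2 called 2, 5 and 1 genes at 24 h for GW3965, for rosiglitazone against GW3965 and for GW3965 against T0901317. Library size scaling gave 0 for T0901317 at 24 h and 2 for GW3965 against T0901317 at 48 h. Leaving out each library in turn gave 3 to 5 for rosiglitazone against GW3965 at 24 h (5 without GW3965 replicate 1) and 1 to 2 for GW3965 against T0901317 at 48 h (2 without rosiglitazone replicate 3). The cause of these changes was not tested. The HMOX1 interaction with GW3965 (0.68, adjusted p = 0.00974 with edgeR) held in 6 of 32 fits without a library. Library size scaling moved the share of higher calls for GW3965 against T0901317 at 48 h from 59.8% to 31.4%, for rosiglitazone against GW3965 at 48 h from 49.8% to 36% and for the rosiglitazone and T0901317 interactions from 56.4% to 29% and from 43% to 55.5%. Replicate numbers gave no sign of pairing the samples, which cannot show that they are unpaired. Deviations of same-numbered libraries correlated with medians of -0.0135 and 0.0268 at 24 and 48 h, and 5 and 4 of 16 libraries correlated best with their own number. Single pairs at 24 h reached 0.487 with the same number and 0.389 with different numbers. With the replicate block the HMOX1 interaction with GW3965 (0.67, adjusted p = 0.0125, edgeR) and NQO1 in DMSO over time (0.19, adjusted p = 0.0666) were no longer called, and no count of calls moved by over 1.5 times. Depth limits DUOX2 and DUOXA2, with at most 40 counts in a library.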
